A study of Mus musculus with 36 samples.

Results

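Whole kidneys of C57BL/6 mice that lacked Pkhd1 and were also homozygous for the RC allele of Pkd1 (Digenic, genotype Pkhd1-/-;Pkd1-RC/RC) were compared at postnatal day 12 (P12) with kidneys of mice of the same strain and age that lacked Pkhd1 only (Pkhd1-/-). Both groups carry the loss of Pkhd1, so the comparison is on what the Pkd1 RC allele adds to it. The 6 libraries, 3 per group, were found by the mouse number in the sample titles and are part of 36 libraries of total RNA (4 genotypes at 3 ages, 3 libraries each), read as 150 bp pairs. The series was made to study the genetic interaction of Pkhd1 and Pkd1. The other P12 kidneys were Pkd1-RC/RC, with the RC allele and intact Pkhd1, and WT, with neither change. No treatment is given in the labels, and each library has its own mouse number. The p-values measure the spread between these libraries.

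Pkhd1 encodes fibrocystin, a membrane protein of the primary cilium whose loss causes autosomal recessive polycystic kidney disease. Pkd1 encodes polycystin-1, a large membrane protein that forms a channel complex with polycystin-2 (Pkd2) and whose loss causes the dominant form of the disease, in which tubules widen into cysts. The RC allele is a missense allele with reduced function. In mice the nephrons go on maturing for weeks after birth, and cystic kidneys are known for injured tubule cells, fibrosis and infiltrating macrophages.

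Total counts of the 6 libraries ran from 53152909 to 67000786. The column header of Digenic replicate 1 names P3 in place of P12, and that of Pkd1-RC/RC replicate 2 names Pkhd1; the labels were followed for both. On the scale of postnatal change described further on, Digenic replicate 1 lay at 0.737, beside 0.698 and 0.73 in the other two Digenic libraries, while all P3 libraries lay between 0.257 and 0.434. Pkd1-RC/RC replicate 2 had 229.7 CPM of Pkhd1 (read counts scaled by library total), against 18.9 to 20.1 CPM in the Pkhd1-/- libraries. Replicates 1 and 2 of Digenic were male and replicate 3 female, and replicates 1 and 2 of Pkhd1-/- were female and replicate 3 male. The 3 Pkd1-RC/RC mice of P12 were all male, while WT replicates 1 and 3 were male and replicate 2 female. Sex called from Xist and Y-linked genes matched the column header in 33 of the 36 libraries, among them all 12 of P12. Those that differed were of P0 or P3, and the labels were followed for them too. On the first principal component, with 44.4% of the variance of the 12 P12 libraries, the Digenic libraries lay at -74.3, -35.4 and -61.3, and the other 9 between 11.7 and 24.8.

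The groups differed widely at P12, with immune and injury genes higher in Digenic kidneys and genes of the mature nephron lower. Of 18002 genes tested with edgeR's quasi-likelihood test, 5073 (28.2%) passed a Benjamini-Hochberg adjusted p of 0.05 and are referred to as called. Of these, 2798 (15.5% of those tested) were higher in Digenic and 2275 (12.6%) lower. At least 2-fold differences were called for 816 genes upward and 414 downward. Without Digenic replicate 1, 5009 genes were called, of which 4258 had been called in the same direction with it, and with sex as a covariate 4561 were called. The 3 libraries of each group did not overlap for 4038 genes higher in Digenic (22.4%) and 4156 lower (23.1%).

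The mutated genes themselves differed little. Pkhd1 had 32.3, 20.4 and 18.6 CPM in the Digenic libraries, against 19.5, 18.9 and 20.1 CPM in the Pkhd1-/- libraries (log2 fold change 0.29 ± 0.18 (SE), adjusted p = 0.252), while the Pkd1-RC/RC libraries held 224, 229.7 and 214 CPM and the WT libraries 246, 176 and 222 CPM. Both groups without Pkhd1 thus lay far below both with it, as their labels say, and Digenic replicate 1 was the highest of the 6. Pkd1 had 71.3, 79.3 and 86.5 CPM in Digenic and 95.2, 85.4 and 76.3 CPM in Pkhd1-/- kidneys (log2 fold change -0.12 ± 0.13 (SE), adjusted p = 0.545), with overlapping groups. Counts per gene cannot show which Pkd1 allele a library carries, and Pkd1 overlaps Tsc2. Pkd2 had 193, 183 and 204 CPM in Digenic and 182, 191 and 172 CPM in Pkhd1-/- kidneys (log2 fold change 0.09 ± 0.08 (SE), adjusted p = 0.435). These 3 genes were not called.

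Among the 12 genes that rose most, at a mean level of at least 1 (log2 CPM) over the 6 libraries, were genes of antigen presentation, the interferon response and inflammation. The interferon-inducible GTPase Tgtp1 (chr11:48985327-48994172 of mm10) had 239, 3.75 and 30.9 CPM in the Digenic libraries, against 1.42, 1.74 and 0.956 CPM in the Pkhd1-/- libraries (log2 fold change 6.05 ± 1.46 (SE), adjusted p = 0.0161). Its near-identical neighbour Tgtp2 had 179, 2.94 and 25.8 CPM in Digenic, against 1.13, 2.16 and 0.564 CPM in Pkhd1-/- kidneys (log2 fold change 5.74), and reads of the pair cannot be told apart with certainty. Iigp1, another GTPase of this class that protects cells against vacuolar pathogens, had 949, 15.5 and 107 CPM in Digenic and 6.97, 6.54 and 4.25 CPM in Pkhd1-/- kidneys (log2 fold change 5.91). Gbp6, a guanylate-binding protein, had 194, 3.56 and 36.8 CPM in Digenic and 2.09, 1.98 and 2.73 CPM in Pkhd1-/- kidneys (log2 fold change 5.11). In these 4 genes Digenic replicate 1 was far above the other two, and replicate 2 lay only just above the Pkhd1-/- range. The calls of Tgtp1, Tgtp2 and Iigp1 were lost when any 1 Pkhd1-/- library was left out, and that of Gbp6 without Pkhd1-/- replicate 1 or 2. The calls of these 4 genes were also lost in a fit of the 6 Digenic and Pkhd1-/- libraries alone.

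The invariant chain Cd74 (chr18:60803848-60812646), which escorts MHC class II molecules to the compartment where they are loaded with peptide, had 2592, 269 and 1907 CPM in the Digenic libraries, against 43.4, 40.7 and 41.3 CPM in the Pkhd1-/- libraries (log2 fold change 5.25 ± 0.75 (SE), adjusted p = 0.00126). The class II alpha chain H2-Aa (chr17:34282744-34287827) had 979, 91.2 and 716 CPM in Digenic, against 14.5, 13.4 and 14.4 CPM in Pkhd1-/- kidneys (log2 fold change 5.40 ± 0.80 (SE), adjusted p = 0.00157). All 3 Digenic libraries lay above the Pkhd1-/- libraries in both genes, replicates 1 and 3 by far more than replicate 2. Mir5107 lies within Cd74 and its counts (log2 fold change 5.27) cannot be told from those of its host. Ccl21a, a chemokine that draws lymphocytes and dendritic cells to lymphoid tissue, had 81.6, 21.4 and 101 CPM in Digenic and 1.07, 1.41 and 2.70 CPM in Pkhd1-/- kidneys (log2 fold change 5.30 ± 0.68 (SE), adjusted p = 0.000643). Serpina3g, a serine protease inhibitor, had 136, 26.5 and 75.4 CPM in Digenic and 3.00, 2.53 and 2.20 CPM in Pkhd1-/- kidneys (log2 fold change 4.94 ± 0.58 (SE), adjusted p = 0.000384). The complement component C4b had 41.8, 5.21 and 25.0 CPM in Digenic and 0.303, 0.402 and 1.23 CPM in Pkhd1-/- kidneys (log2 fold change 5.23). The antibody receptor Fcgr4 had 30.9, 2.44 and 12.7 CPM in Digenic and 0.590, 0.640 and 0.359 CPM in Pkhd1-/- kidneys (log2 fold change 4.85). The neutrophil protein S100a8 had 26.3, 3.48 and 33.2 CPM in Digenic and 0.718, 0.819 and 0.683 CPM in Pkhd1-/- kidneys (log2 fold change 4.82). The groups did not overlap in any of the 12, which the naming rule required.

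The size of these rises differed between the 3 Digenic mice. Replicate 2 was the lowest Digenic library in 12 of the 12 genes and replicate 1 the highest in 10. Over the 816 genes called at least 2-fold higher, replicate 1 was the highest in 477 and replicate 2 the lowest in 547. Without Digenic replicate 1 the log2 fold changes were 3.65 for Tgtp1, 3.16 for Gbp6, 4.84 for H2-Aa, 4.70 for Cd74, 5.15 for Ccl21a and 4.30 for Serpina3g, all still called. H2-Aa and C4b lie on chromosome 17 within 20 Mb of Pkd1.

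**Figure D1:**
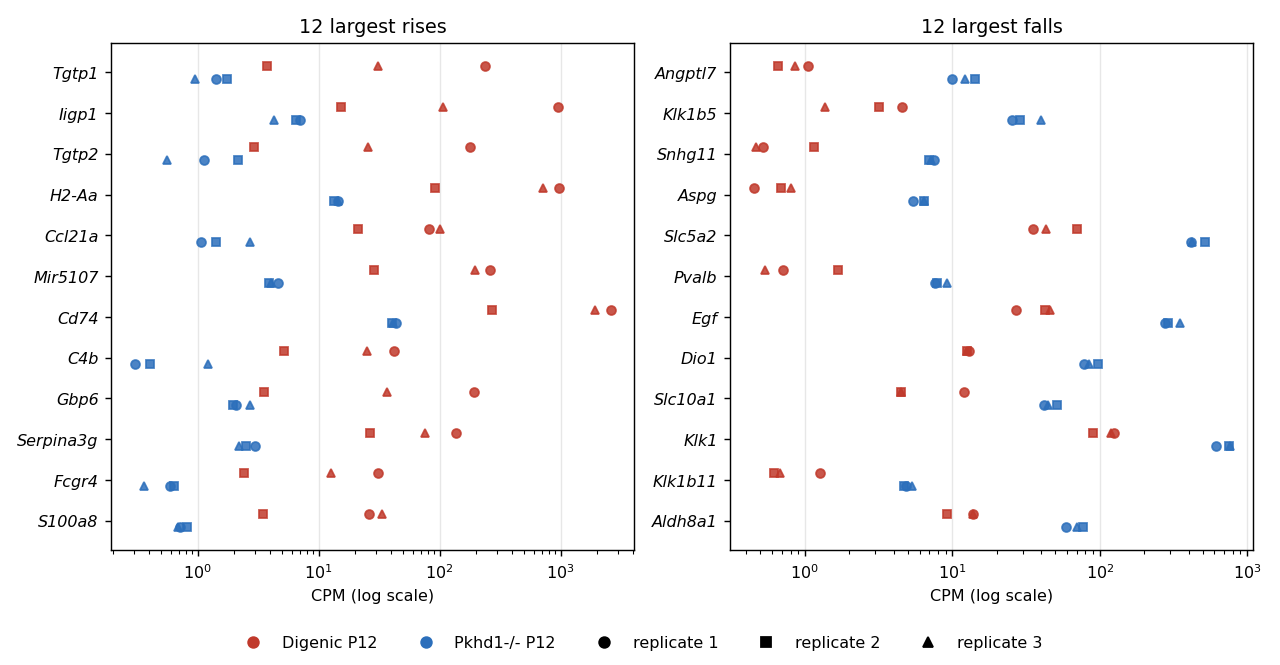
CPM of the 12 largest called rises (left panel) and 12 largest called falls (right panel) in each of the 3 Digenic and 3 Pkhd1-/- libraries at P12, on a log axis, with a symbol for each replicate. In the rises Digenic replicate 2 is the lowest Digenic library throughout, while in the falls the 3 Digenic libraries lie closer together, Angptl7 between 0.656 and 1.06 CPM against 9.95 to 14.2 CPM in Pkhd1-/-.

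Interferons act chiefly through a pair of promoter elements, the interferon-stimulated response element (ISRE), read by interferon regulatory factors, and the gamma-activated site (GAS). The promoters of the 12 largest rises and of the interferon response genes were searched on both strands, and those of other named genes were not. The ISRE was taken as GAAA, 2 bases of any kind and GAAA, and the GAS as TTC, 3 bases of any kind and GAA. RefSeq windows of 300 bases (GRCm38.p6) around the start of transcription were used. The choice of motifs was made after the values were seen. A promoter was listed for 7 of the 12 genes, of which 3 held an ISRE match (Tgtp1, Tgtp2 and Fcgr4) and 3 a GAS match (Tgtp1, Tgtp2 and Serpina3g), while 3.44% and 8.3% of all 32851 promoters held these. As Tgtp1 and Tgtp2 are near-identical neighbours, their matches are not independent. Of 16 interferon response genes with a promoter, out of 21 measured, 9 held an ISRE match, 3 a GAS match, 3 a match of a kappaB form and 2 an AP-1 match. The kappaB form, GGG, 3 bases of any kind and TTCC, stood in 1 of the 7 and in 5.56% of all promoters, and the AP-1 letters TGAGTCA in 0 of the 7 and in 5.2%. The 4 promoters of the largest rises with a match are shown with that of Oas1a, the interferon response gene with the smallest adjusted p (8.54, 4.76 and 4.48 CPM in Digenic and 1.55, 1.82 and 1.35 CPM in Pkhd1-/- kidneys), each on the strand of its gene with ISRE and GAS matches in capitals. The 2 ISRE matches of Oas1a overlap.
Tgtp1 (chr11:48992197-48992496, minus strand): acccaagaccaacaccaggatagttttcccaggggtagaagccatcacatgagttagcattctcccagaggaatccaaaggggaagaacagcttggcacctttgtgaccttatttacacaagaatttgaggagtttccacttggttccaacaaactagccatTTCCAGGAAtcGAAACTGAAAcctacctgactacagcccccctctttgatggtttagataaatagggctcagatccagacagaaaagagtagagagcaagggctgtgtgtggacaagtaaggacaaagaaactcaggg
Tgtp2 (chr11:49064163-49064462, minus strand): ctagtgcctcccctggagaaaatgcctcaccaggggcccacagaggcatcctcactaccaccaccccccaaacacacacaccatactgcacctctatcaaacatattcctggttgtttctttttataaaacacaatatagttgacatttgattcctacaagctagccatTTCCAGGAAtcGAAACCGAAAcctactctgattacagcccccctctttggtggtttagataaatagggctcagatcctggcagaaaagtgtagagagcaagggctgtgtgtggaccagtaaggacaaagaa
Fcgr4 (chr1:171018676-171018975, plus strand): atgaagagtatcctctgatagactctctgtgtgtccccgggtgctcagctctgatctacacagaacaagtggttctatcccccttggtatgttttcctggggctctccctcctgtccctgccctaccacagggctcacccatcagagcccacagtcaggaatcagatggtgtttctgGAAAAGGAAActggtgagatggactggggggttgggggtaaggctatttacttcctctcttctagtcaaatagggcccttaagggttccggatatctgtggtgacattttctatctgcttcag
Serpina3g (chr12:104235897-104236196, plus strand): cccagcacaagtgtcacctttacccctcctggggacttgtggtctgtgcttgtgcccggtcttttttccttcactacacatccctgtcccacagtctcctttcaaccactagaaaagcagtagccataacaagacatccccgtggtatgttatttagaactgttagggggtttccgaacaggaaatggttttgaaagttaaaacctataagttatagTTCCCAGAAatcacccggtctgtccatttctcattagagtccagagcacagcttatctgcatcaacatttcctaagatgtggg
Oas1a (chr5:120907476-120907775, minus strand): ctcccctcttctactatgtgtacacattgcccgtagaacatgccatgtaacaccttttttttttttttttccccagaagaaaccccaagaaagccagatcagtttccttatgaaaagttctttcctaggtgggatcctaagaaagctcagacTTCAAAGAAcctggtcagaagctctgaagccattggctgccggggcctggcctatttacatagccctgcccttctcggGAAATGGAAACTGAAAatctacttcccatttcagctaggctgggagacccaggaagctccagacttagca
In Tgtp1 and Tgtp2 the GAS stands just upstream of the ISRE, with first bases 88 and 77 bases before the start in Tgtp1 and 81 and 70 bases before it in Tgtp2. The ISRE of Fcgr4 begins 73 bases and the GAS of Serpina3g 33 bases before the start. A match describes letters only and shows no binding.

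Genes of immune cells rose as groups. Of 21 measured macrophage genes 20 rose and none fell, with a median log2 fold change of 2.65, against -0.00889 over all tested genes. The summed level of the list was 1482, 538 and 1402 CPM in the Digenic libraries, against 216, 217 and 225 CPM in the Pkhd1-/- libraries. Csf1r, the receptor for the macrophage growth factor CSF1, had 214, 117 and 223 CPM in Digenic and 65.0, 66.8 and 62.7 CPM in Pkhd1-/- kidneys (log2 fold change 1.51 ± 0.19 (SE), adjusted p = 0.000207). Cd14, the co-receptor for bacterial lipopolysaccharide, had 23.2, 15.2 and 16.5 CPM in Digenic, against 4.50, 4.09 and 4.54 CPM in Pkhd1-/- kidneys (log2 fold change 2.06 ± 0.16 (SE), adjusted p = 9.74e-06). The scavenger receptor Cd163 (log2 fold change 2.87), the lysosomal protein Cd68 (2.09) and the lipid-sensing receptor Trem2 (2.52) rose too. In all of these but Cd14, Digenic replicates 1 and 3 were close to each other and replicate 2 lower, and every Digenic library lay above every Pkhd1-/- library. In whole kidney, more cells of a type and more RNA per cell cannot be told apart.

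Of 8 MHC class II genes 7 rose (median 3.86) and 0 fell, with summed levels of 5499, 593 and 3972 CPM in the Digenic libraries, against 146, 139 and 134 CPM in the Pkhd1-/- libraries. Of 8 measured neutrophil genes 7 rose (median 3.87), among them the granule genes Mmp8 (log2 fold change 4.11) and Ltf (3.11) and the S100a8 partner S100a9 (4.47), with summed levels of 73.7, 12.7 and 113 CPM in the Digenic libraries, against 8.21, 6.73 and 7.11 CPM in the Pkhd1-/- libraries. Of 7 measured lymphocyte genes 4 rose and 1 fell, the T cell co-receptor Cd4 by 2.32, the T cell receptor alpha constant region Trac by 1.58 and the B cell receptor component Cd79b by 1.25 on the log2 scale. Among complement genes 14 of 18 rose and 1 fell (median 1.72). C3, on which all complement pathways meet, had 134, 17.7 and 69.7 CPM in Digenic and 5.04, 5.63 and 9.94 CPM in Pkhd1-/- kidneys (log2 fold change 3.43 ± 0.64 (SE), adjusted p = 0.00459). The anaphylatoxin receptor C3ar1 (2.46), the C1 inhibitor Serping1 (0.82) and the recognition component C1qa (2.76) rose as well, in log2 units. Of 13 measured chemokine and cytokine genes 9 rose and 1 fell, including Csf1 with 76.1, 34.5 and 41.8 CPM in Digenic and 16.9, 15.4 and 15.4 CPM in Pkhd1-/- kidneys (log2 fold change 1.67 ± 0.24 (SE), adjusted p = 0.000554) and the monocyte attractant Cx3cl1 (log2 fold change 0.87). The lists held 12 neutrophil, 18 lymphocyte and 28 chemokine and cytokine genes, many too low to be measured. A gene low in other kidneys could be measured through the Digenic libraries alone. The shares of measured members that rose can be raised by this.

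The interferon response list was less even. Of 21 measured genes 12 rose and 0 fell, with a median of 1.12 that was 0.442 without Digenic replicate 1, when 8 were called; leaving out single libraries gave 5 to 14 called. Irf7, a regulator of interferon genes, had 34.9, 10.8 and 12.6 CPM in Digenic and 5.66, 6.00 and 4.13 CPM in Pkhd1-/- kidneys (log2 fold change 1.88 ± 0.42 (SE), adjusted p = 0.00692), so that Digenic replicate 1 lay far above the other two.

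**Figure D2:**
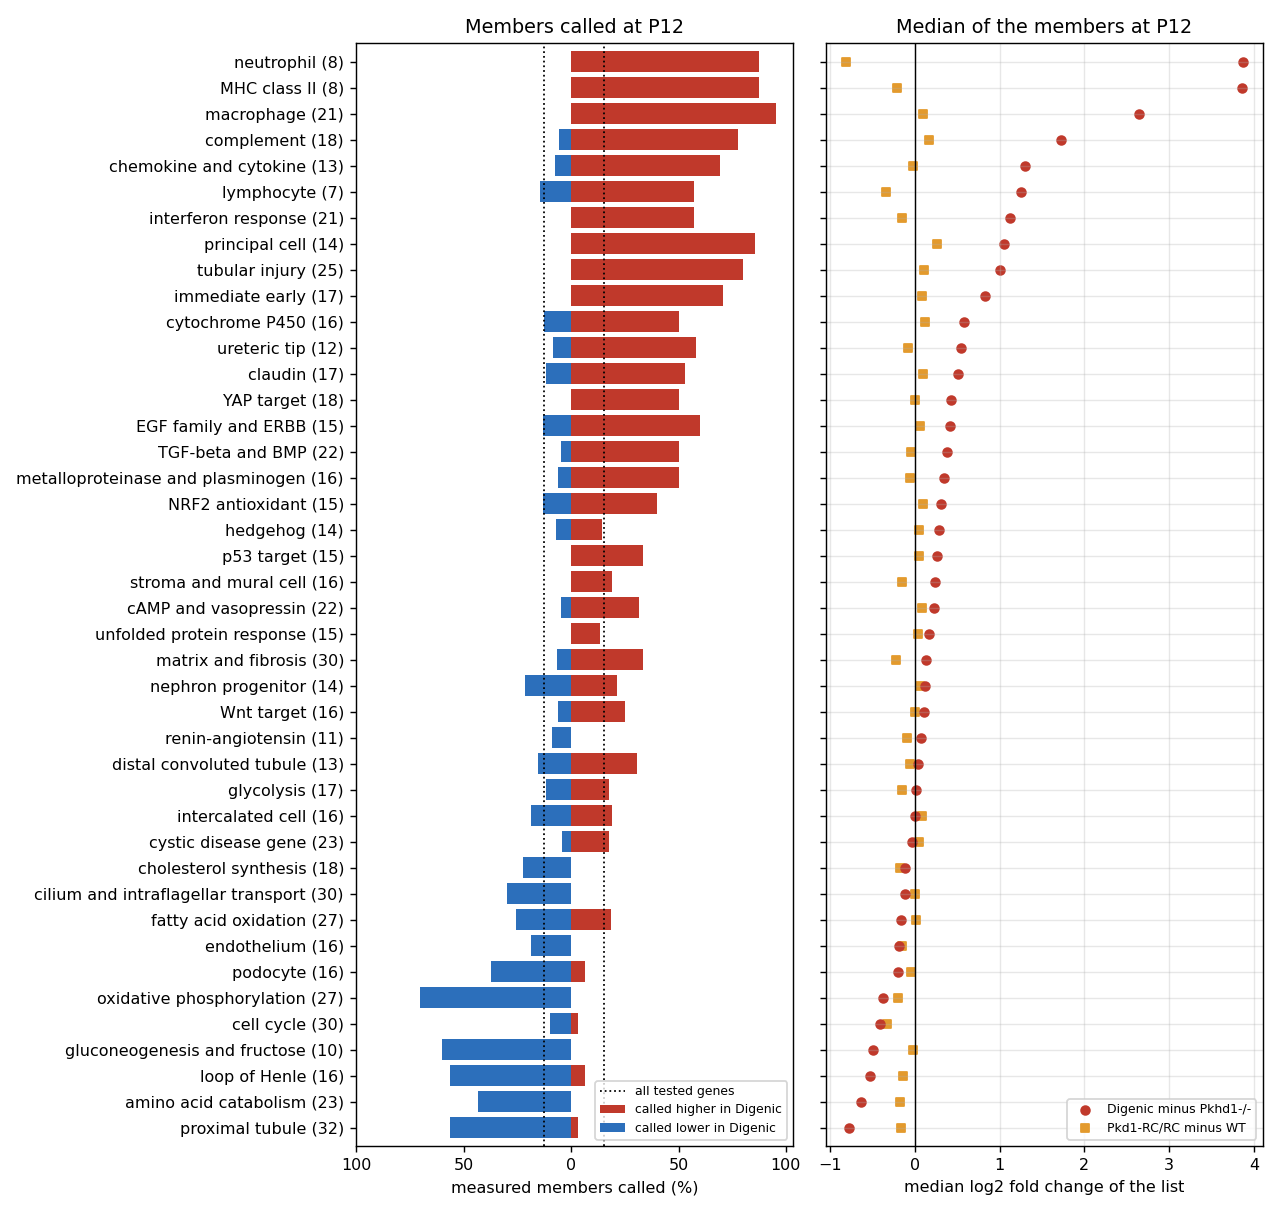
Left, the percentage of measured members (number in brackets) of 42 gene lists called higher (red, to the right) or lower (blue, to the left) in Digenic than in Pkhd1-/- kidneys at P12, with dotted lines at 15.5% higher and 12.6% lower for all tested genes. Right, the median log2 fold change of each list for Digenic minus Pkhd1-/- (circles) and Pkd1-RC/RC minus WT (squares); the circles spread from -0.772 for proximal tubule to 3.87 for neutrophil, while the squares lie between -0.815 and 0.265.

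Injury genes of the tubule rose in Digenic kidneys. Of 25 measured genes 20 were called higher and 0 lower, with a median log2 fold change of 1.01. Havcr1, which encodes kidney injury molecule 1 and is nearly silent in healthy tubules, had 11.7, 11.7 and 7.33 CPM in Digenic and 0.415, 0.402 and 0.581 CPM in Pkhd1-/- kidneys (log2 fold change 4.46 ± 0.45 (SE), adjusted p = 5.18e-05). Gdf15, a stress-induced cytokine, had 39.6, 33.3 and 31.0 CPM in Digenic and 6.44, 7.21 and 8.32 CPM in Pkhd1-/- kidneys (log2 fold change 2.24 ± 0.15 (SE), adjusted p = 2.86e-06). The 3 Digenic libraries were close to each other in Gdf15, and those of Havcr1 all lay far above the Pkhd1-/- libraries. Lcn2, the iron-carrier-binding protein NGAL used as a urinary injury marker, had 485, 145 and 133 CPM in Digenic and 18.5, 16.8 and 18.2 CPM in Pkhd1-/- kidneys (log2 fold change 3.84 ± 0.48 (SE), adjusted p = 0.000542), with replicate 1 above the others. Sprr2f, a cornified-envelope protein below the mean level set for the 12 largest rises, had 12.0, 17.4 and 7.72 CPM in Digenic, against 0.0640, 0.119 and 0.0170 CPM in Pkhd1-/- kidneys (log2 fold change 7.46 ± 0.71 (SE), adjusted p = 5.18e-05), a larger fold change than any of the 12. The keratin Krt18 (1.77) and the hyaluronan receptor Cd44 (1.29) also rose, in log2 units.

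Collecting duct principal cell genes rose while proximal tubule and loop of Henle genes fell. Of 14 principal cell genes 12 rose and 0 fell (median 1.05), with the list summing to 3967, 4756 and 4552 CPM in the Digenic libraries, against 1853, 1942 and 1914 CPM in the Pkhd1-/- libraries. The vasopressin-regulated water channel Aqp2 had 1377, 1981 and 1852 CPM in Digenic and 315, 315 and 298 CPM in Pkhd1-/- kidneys (log2 fold change 2.49 ± 0.38 (SE), adjusted p = 0.00107). Scnn1b, a subunit of the epithelial sodium channel, had 180.3, 180.2 and 193 CPM in Digenic and 79.5, 88.8 and 83.6 CPM in Pkhd1-/- kidneys (log2 fold change 1.14 ± 0.07 (SE), adjusted p = 2.42e-06). Here the 3 Digenic libraries lay close together and well apart from the Pkhd1-/- libraries. The other sodium channel subunit Scnn1g (1.20), the basolateral water channel Aqp3 (1.67) and the transcription factor Gata3 (1.23) rose too, in log2 units, as did the vasopressin receptor Avpr2 (1.22) of the cAMP list, of which 7 of 22 rose and 1 fell. Intercalated cell genes, the other cell type of the duct, showed no common direction, with 3 of 16 higher, among them the transcription factor Foxi1 (0.55), and 3 lower.

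Of 32 proximal tubule genes 18 fell and 1 rose (median -0.772), with summed levels of 10920.0, 10040.0 and 10870.0 CPM in the Digenic libraries, against 17940.0, 20380.0 and 20060.0 CPM in the Pkhd1-/- libraries. Slc5a2, the glucose transporter SGLT2 of the early proximal tubule (chr7:128265657-128272430), had 35.1, 70.3 and 43.1 CPM in Digenic and 418, 517 and 422 CPM in Pkhd1-/- kidneys (log2 fold change -3.19 ± 0.28 (SE), adjusted p = 3.56e-05). Miox, which opens the ring of myo-inositol, had 256, 282 and 269 CPM in Digenic and 779.8, 993 and 890.2 CPM in Pkhd1-/- kidneys (log2 fold change -1.72 ± 0.17 (SE), adjusted p = 3.24e-05). The phosphate transporter Slc34a1 had 1186, 1413 and 1434 CPM in Digenic and 2514, 2910.4 and 2670.0 CPM in Pkhd1-/- kidneys (adjusted p = 8.22e-05). Its relative Slc34a3 (-2.28) and the arginine synthesis enzyme Ass1 (-1.57) fell as well, in log2 units. The endocytic receptors Lrp2 (-0.13) and Cubn (0.11), the water channel Aqp1 (0.29) and the transcription factor Hnf4a (-0.27) were not called.

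Of 16 loop of Henle genes 9 fell and 1 rose (median -0.53). Umod, the most abundant protein of normal urine, had 1083, 1150.2 and 1099.7 CPM in Digenic and 1861, 1898 and 1782 CPM in Pkhd1-/- kidneys (log2 fold change -0.73 ± 0.09 (SE), adjusted p = 0.000106), and the cotransporter Slc12a1, the target of loop diuretics, had 624, 917 and 829 CPM in Digenic and 1335, 1272 and 1307 CPM in Pkhd1-/- kidneys (log2 fold change -0.72 ± 0.13 (SE), adjusted p = 0.00159). In the distal convoluted tubule 4 of 13 genes rose and 2 fell. The calcium channel Trpv5 rose, with 79.7, 36.9 and 48.5 CPM in Digenic and 16.5, 19.4 and 18.5 CPM in Pkhd1-/- kidneys (log2 fold change 1.60 ± 0.22 (SE), adjusted p = 0.000366), while the calcium-binding protein Pvalb fell (-3.08). Podocyte genes fell in 6 of 16 and rose in 1. Col4a3, a chain of the mature glomerular basement membrane, had 213, 201 and 209.8 CPM in Digenic and 428, 443 and 449.9 CPM in Pkhd1-/- kidneys (log2 fold change -1.08 ± 0.12 (SE), adjusted p = 5.41e-05), and its partner Col4a4 fell by 0.54 on the log2 scale. Of 16 endothelial genes 3 fell (18.8%), and of 16 genes of stroma and mural cells 3 rose (18.8%), including the smooth muscle genes Acta2 (0.98) and Tagln (1.07). Both shares were near those of all tested genes, 12.6% lower and 15.5% higher.

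Several groups of metabolic genes were lower. In oxidative phosphorylation 19 of 27 fell and 0 rose (median -0.371), Ndufs1 of complex I most by adjusted p (log2 fold change -0.80 ± 0.09 (SE), adjusted p = 6.53e-05), with 160.3, 137 and 155 CPM in Digenic and 252, 274 and 261 CPM in Pkhd1-/- kidneys; leaving out single libraries gave 9 to 19 falls. In amino acid catabolism 10 of 23 fell and 0 rose. The mitochondrial enzyme Dmgdh, which degrades dimethylglycine, had 11.8, 14.8 and 12.8 CPM in Digenic and 41.9, 44.7 and 48.6 CPM in Pkhd1-/- kidneys (log2 fold change -1.78 ± 0.14 (SE), adjusted p = 9.40e-06). In gluconeogenesis and fructose use 6 of 10 fell, among them G6pc, which releases free glucose, with 155, 170.5 and 267 CPM in Digenic and 493, 627 and 472 CPM in Pkhd1-/- kidneys (log2 fold change -1.43 ± 0.23 (SE), adjusted p = 0.00108), and the fructose kinase Khk (-0.73). Fatty acid oxidation moved both ways, with 7 of 27 lower and 5 higher, and glycolysis had 3 of 17 higher and 2 lower. Cholesterol synthesis had 4 of 18 lower (22.2%), including the HMG-CoA synthase Hmgcs1 (-0.66). Among all tested genes 12.6% were lower and 15.5% higher. Glycolysis, with 11.8% lower and 17.6% higher, was near these shares.

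Among called genes of growth factor signalling, the immediate early response and cell junctions, most were higher. Of 15 measured EGF family and ERBB genes 9 rose and 2 fell, the largest fall being Egf itself. Egf (chr3:129677575-129755322) had 27.1, 42.4 and 45.8 CPM in Digenic and 276, 291 and 348 CPM in Pkhd1-/- kidneys (log2 fold change -2.99 ± 0.30 (SE), adjusted p = 0.000103). The ligand Btc had 79.0, 76.6 and 59.3 CPM in Digenic and 14.4, 16.7 and 14.9 CPM in Pkhd1-/- kidneys (log2 fold change 2.22 ± 0.16 (SE), adjusted p = 7.96e-06). The groups were far apart in both genes, in opposite directions. The ligands Nrg1 (1.95) and Hbegf (0.53) and the receptor Egfr (0.74) rose too, in log2 units. Of 17 measured immediate early genes 12 rose and 0 fell (median 0.825), among them Fos with 9.20, 8.84 and 14.5 CPM in Digenic and 2.25, 1.58 and 1.45 CPM in Pkhd1-/- kidneys (log2 fold change 2.62 ± 0.35 (SE), adjusted p = 0.000306) and Myc with 40.5, 30.9 and 32.6 CPM in Digenic and 13.9, 11.8 and 14.4 CPM in Pkhd1-/- kidneys (log2 fold change 1.38 ± 0.12 (SE), adjusted p = 2.26e-05). Targets of the co-activator YAP rose in 9 of 18 measured genes and fell in 0, such as F3, the tissue factor that starts clotting (1.36), and the growth regulator Fjx1 (1.06). The tight junction claudins rose in 9 of 17 and fell in 2, Cldn3 by 1.62 and Cldn4 by 1.44 upward and Cldn10 by 0.76 downward on the log2 scale. Ureteric tip genes rose in 7 of 12 and fell in 1, including Gfra1, the co-receptor of GDNF (1.31), and the transcription factor Sox9 (1.06).

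Matrix genes rose in part. Of 30 genes 10 rose and 2 fell (median 0.136). Col12a1, a fibril-associated collagen, had 264, 249.7 and 260.3 CPM in Digenic and 82.9, 55.5 and 71.3 CPM in Pkhd1-/- kidneys (log2 fold change 1.88 ± 0.14 (SE), adjusted p = 7.96e-06), and the cross-linking enzyme Loxl1 had 175, 171 and 176 CPM in Digenic and 78.8, 82.8 and 86.6 CPM in Pkhd1-/- kidneys (log2 fold change 1.07 ± 0.07 (SE), adjusted p = 2.42e-06). The protease inhibitor Timp1 (2.07) and the cross-linker Lox (1.03) rose, in log2 units. The fibrillar collagens Col1a1 (0.42) and Col3a1 (-0.01) and fibronectin Fn1 (-0.03) were not called, and the proteoglycan Lum fell (-1.84). Of 22 TGF-beta and BMP genes 11 rose and 1 fell, including the latent TGF-beta binding protein Ltbp2 (2.79) and Tgfbi (1.19). Of 16 measured metalloproteinase and plasminogen genes 8 rose and 1 fell.

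Further lists are given mainly by their counts, to be read beside 15.5% higher and 12.6% lower among all tested genes. Of 30 cell cycle genes 26 were not called, 3 fell and 1 rose (median -0.408): Mki67 (-0.68), Rrm2 (-0.80) and Ccne2 (-0.68) fell and Ccnd1 (0.30) rose, and each of these calls was lost in at least 2 of the 6 fits without a single library. Of 30 genes of the cilium and intraflagellar transport 9 fell and 0 rose (median -0.115). Ift74 (-0.50) and Ift80 (-0.47) were among those with the smallest adjusted p. Of 23 cystic disease genes 4 rose and 1 fell (median -0.0296). The cytochrome P450 list had 8 of 16 measured genes higher and 2 lower, with Cyp2j13 at 23.4, 5.47 and 10.1 CPM in Digenic and 0.957, 0.878 and 1.06 CPM in Pkhd1-/- kidneys. Of 15 p53 targets 5 rose and 0 fell, of 15 NRF2 antioxidant genes 6 rose, including the haem-degrading enzyme Hmox1 (1.22), and 2 fell, and of 15 genes of the unfolded protein response 2 rose and 0 fell. The counts for hedgehog were 2 higher and 1 lower of 14, for Wnt targets 4 higher and 1 lower of 16, for nephron progenitors 3 higher and 3 lower of 14, and for renin and angiotensin 1 lower of 11. Fits that each left out 1 library gave 0 to 3 rises for cystic disease genes, 5 to 10 falls for cilium genes, 2 to 6 rises for hedgehog, 1 to 3 for Wnt targets, 1 to 4 for nephron progenitors, 3 to 5 for p53 targets, 1 to 4 for the unfolded protein response, 4 to 6 for ureteric tip genes, 4 to 6 for the cAMP list, 2 to 5 for fatty acid oxidation and 0 to 4 for glycolysis, and 2 to 4 falls for cholesterol synthesis. Among the cell type lists they gave 1 to 4 rises and 2 to 5 falls for the distal convoluted tubule, 2 to 5 falls for intercalated cells, 2 to 8 falls for endothelium, with 8 without Digenic replicate 2, and 3 to 7 rises for stroma and mural cells, with 7 without Digenic replicate 1.

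Markers of tissues beside the kidney varied between mice of both groups. Adrenal genes summed to 16.2, 184 and 232 CPM in the Digenic libraries, against 19.7, 16.2 and 252 CPM in the Pkhd1-/- libraries, high in Digenic replicates 2 and 3 and Pkhd1-/- replicate 3, and 0 of 12 were called, although 4 were called higher without Pkhd1-/- replicate 3. Of 5 muscle and 8 erythroid genes 0 were called, of 10 fat genes 1 rose and 1 fell, and of 9 gut, liver and pancreas genes 4 fell, among them the elastase Cela1 (-1.79), with 2 or 3 falls in each fit without a single library. Of the 5 sex-linked genes used to call the sex of the mice 0 were called. The part of sex in these results was not tested beyond the fit with sex as a covariate.

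The 12 largest falls included genes of a secreted protein, proteases, transporters and enzymes. Angptl7, an angiopoietin-like secreted protein (chr4:148495183-148500460), had 1.06, 0.656 and 0.858 CPM in the Digenic libraries, against 9.95, 14.2 and 12.2 CPM in the Pkhd1-/- libraries (log2 fold change -3.81 ± 0.38 (SE), adjusted p = 7.42e-05), the largest fall. The kallikrein Klk1, a protease that releases kinins, had 125, 89.6 and 119 CPM in Digenic and 616, 747 and 759 CPM in Pkhd1-/- kidneys (log2 fold change -2.67 ± 0.25 (SE), adjusted p = 3.79e-05). Its relatives Klk1b5 (-3.37) and Klk1b11 (-2.54) fell as well, in log2 units, with the reservation that this multigene family shares reads. Dio1, the deiodinase that makes active thyroid hormone, had 13.0, 12.5 and 12.7 CPM in Digenic and 78.1, 96.6 and 84.6 CPM in Pkhd1-/- kidneys (log2 fold change -2.76 ± 0.36 (SE), adjusted p = 0.000552). The 3 Digenic libraries of Dio1 were almost level with each other, and those of Klk1 all lay far below the Pkhd1-/- libraries. Snhg11, a non-coding RNA host gene (-3.34), the asparaginase Aspg (-3.22), the bile acid transporter Slc10a1 (-2.71) and the retinal dehydrogenase Aldh8a1 (-2.48) fell too, beside Slc5a2, Egf and Pvalb. Angptl7 overlaps Mtor, Slc5a2 overlaps BC017158 and Klk1 overlaps Gm10109, and as the libraries' strand is not stated, part of their counts can belong to these neighbours. None of the 12 lost its call when a single library was left out. All 12 had risen at least 2-fold in WT kidneys between P0 and P12.

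That last property was shared by many called genes. In WT kidneys 8986 of 18049 genes (49.8%) were called between P12 and P0, 26.2% higher and 23.6% lower at P12. Of these 1737 rose at least 2-fold, and 675 of them (38.9%) were called lower in Digenic than in Pkhd1-/- kidneys at P12 and 100 (5.76%) higher, with a median log2 fold change of -0.403. Of 1311 tested genes that fell at least 2-fold in WT between these ages, 532 (40.6%) were called higher and 28 (2.14%) lower, with a median of 0.438. The WT libraries of this change are in neither group compared. Across the 18002 tested genes the correlation of the difference between Digenic and Pkhd1-/- with the WT change was -0.39, where genes are not independent replicates.

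A position was computed for each library as the mean log2 CPM over all 1737 such rises and 1354 such falls, with falls counted as negative. It was scaled to 0 at the mean of WT P0 and 1 at the mean of WT P12. At P12 the Digenic libraries lay at 0.737, 0.698 and 0.73 (mean 0.722 ± 0.0208, SD, n = 3), against 1, 1.03 and 0.99 in the Pkhd1-/- libraries (mean 1.01 ± 0.0208, SD, n = 3). The groups did not overlap, with a difference of -0.285 and an exact two-sided permutation p of 0.1, the smallest that 3 against 3 libraries allow. The position was 0.998, 0.951 and 0.975 in Pkd1-RC/RC and 0.983, 0.968 and 1.05 in WT kidneys of P12. At P0 the mean was 0.141 in Digenic and 0.0895 in Pkhd1-/- kidneys (exact permutation p = 0.6), and at P3 it was 0.386 in Digenic and 0.36 in Pkhd1-/- kidneys (exact permutation p = 0.7).

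**Figure D3:**
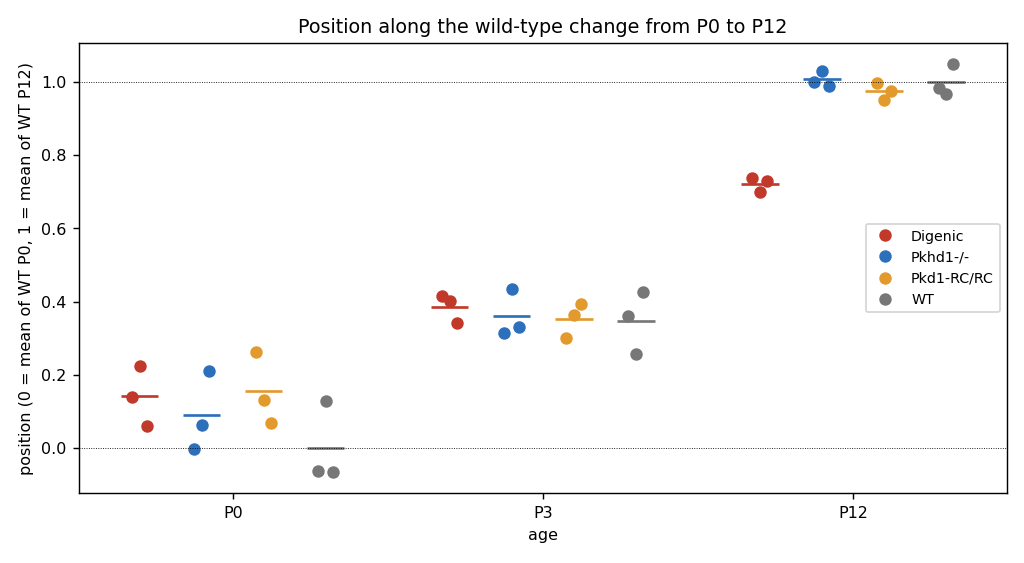
Position of each of the 36 libraries (points, horizontal bars are means of 3) along the WT change from P0 (0) to P12 (1), by age and genotype. The 3 Digenic libraries of P12 sit between 0.698 and 0.737, below the other 9 libraries of that age, which lie between 0.951 and 1.05.

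The RC allele alone moved few genes. Between Pkd1-RC/RC and WT kidneys of P12 48 of 18002 genes (0.267%) were called, 21 higher and 27 lower, while 1343 had a raw p below 0.05 and DESeq2 called 163. None of the 24 largest rises and falls of Digenic against Pkhd1-/- was among them, which does not show that they were unchanged. Among the falls, Pkd1-RC/RC minus WT was -1.01 for Klk1, -0.80 for Egf and -0.66 for Slc5a2, in log2 units. Only Angptl7 (1.75) and Snhg11 (0.31) of these falls were above 0. The 2 comparisons share no library. Of the 2798 genes called higher in Digenic, 1813 had a positive RC effect on the WT background too, with a median of 0.0526 against 0.606 in Digenic minus Pkhd1-/-. Of the 2275 called lower, 1558 had a negative one, with a median of -0.084 against -0.537. Both counts go by the sign alone, called or not. Over all 18002 tested genes the median effect on the WT background was 0.00104. The correlation across all tested genes was 0.187, where genes are not independent replicates.

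Of the 48 genes 30 were called in the same direction in Digenic against Pkhd1-/- and 1, Atp10d, in the other. Near Pkd1, within 20 Mb on chromosome 17, 18 of 535 tested genes (3.36%) were called in Pkd1-RC/RC against WT and 190 (35.5%) in Digenic against Pkhd1-/-, with 16 in both. In the rest of the genome 30 of 17467 (0.172%) and 4883 (28%) were called, with 14 in both. Within this region Dynlt1b, a dynein light chain gene with near-identical copies that may share reads, had 9.66, 8.39 and 8.30 CPM in Digenic and 1.90, 1.49 and 2.73 CPM in Pkhd1-/- kidneys, and 9.20, 11.6 and 8.20 CPM in Pkd1-RC/RC and 2.29, 2.02 and 1.64 CPM in WT kidneys. Rnps1, a splicing factor, had 26.1, 24.4 and 23.0 CPM in Digenic and 38.6, 35.9 and 36.8 CPM in Pkhd1-/- kidneys, and 22.4, 20.9 and 21.1 CPM in Pkd1-RC/RC and 36.2, 34.2 and 32.5 CPM in WT kidneys. In both genes the 2 comparisons differed in the same direction. Outside the region, Scnn1b had 127, 124 and 136 CPM in Pkd1-RC/RC and 97.2, 99.3 and 92.4 CPM in WT kidneys (log2 fold change 0.42, adjusted p = 0.0208). Igfbp2, a binding protein of insulin-like growth factors, had 51.9, 69.5 and 41.4 CPM in Digenic and 153, 139 and 158 CPM in Pkhd1-/- kidneys, and 55.8, 61.6 and 34.1 CPM in Pkd1-RC/RC and 158, 106 and 151 CPM in WT kidneys. Atp10d and Igfbp2, Dynlt1b and Rnps1 were picked out after their values were seen.

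**Figure D4:**
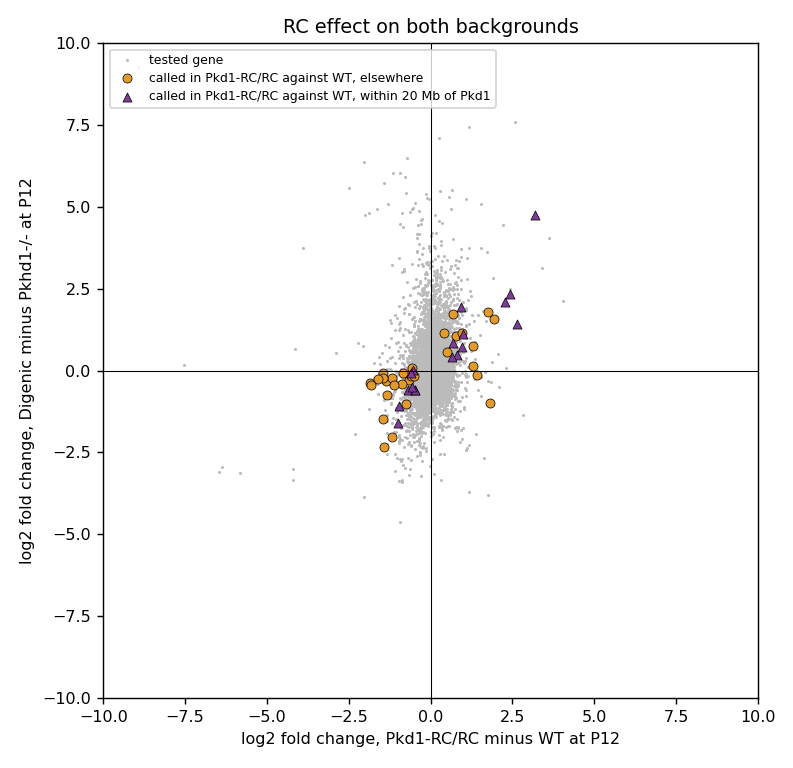
Log2 fold change of each tested gene for Digenic minus Pkhd1-/- (vertical axis) against Pkd1-RC/RC minus WT (horizontal axis), both at P12, with the 48 genes called in the second comparison as triangles within 20 Mb of Pkd1 and circles elsewhere. The grey cloud is drawn out along the vertical axis, and most of the called genes lie where both fold changes have the same sign, 30 of them called in both.

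The difference of the RC effect between the 2 backgrounds, tested as an interaction, was called for 1542 genes (8.57%), 968 positive (5.38%) and 574 negative (3.19%). It was called for 20 of 21 macrophage genes, 13 of 25 tubular injury genes, 5 of 8 MHC class II genes, 4 of 8 neutrophil genes and 5 of 14 principal cell genes, each positive, and for 11 of 32 proximal tubule genes, each negative. S100a8 had the largest positive difference among genes named by the rule for which it was called (5.69, adjusted p = 0.0158), with 0.639, 0.457 and 0.547 CPM in Pkd1-RC/RC and 0.805, 1.77 and 0.488 CPM in WT kidneys. Angptl7 had the largest negative called one (-5.56, adjusted p = 0.000684), with 50.7, 46.8 and 20.3 CPM in Pkd1-RC/RC and 8.76, 15.0 and 11.3 CPM in WT kidneys, a pair not called as different. Atp10d, a lipid flippase, fell in Digenic against Pkhd1-/- and rose in Pkd1-RC/RC against WT, with 3.22, 3.77 and 3.08 CPM in Digenic, 7.43, 6.10 and 6.27 CPM in Pkhd1-/-, 18.4, 26.7 and 16.8 CPM in Pkd1-RC/RC and 6.27, 3.86 and 7.54 CPM in WT kidneys (-2.78, adjusted p = 0.00172). For the interferon genes Tgtp1 (adjusted p = 0.0648), Iigp1 (6.70, adjusted p = 0.0597), Tgtp2 (7.17, adjusted p = 0.0655) and Gbp6 (5.59, adjusted p = 0.0694) the difference was not called. It was called for these 4 in the fit of all 36 libraries, by DESeq2 and without Digenic replicate 2.

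At the earlier ages the Digenic and Pkhd1-/- kidneys differed in fewer genes, 1174 of 18049 (6.5%, with 3.29% higher and 3.21% lower) at P0 and 547 (3.03%, with 2.56% higher and 0.471% lower) at P3. These counts came from the fit of all 36 libraries, which called 3522 genes at P12. The change of the difference from P0 to P12 was called for 1727 genes (9.57%, with 6.32% positive and 3.25% negative), and from P3 to P12 for 787 (4.36%, with 2.52% positive and 1.84% negative). None of the 12 largest rises was called at P0 and 10 were called higher at P3, when Tgtp1 already stood at a log2 fold change of 6.82, Gbp6 at 6.13 and Cd74 at 3.29. Of the 12 largest falls 0 were called at P0 and 3 at P3. At P3 20 of 21 interferon response genes were called higher (median 1.82). At P12 it was 12 of 21 (median 1.12), in the fit of the 12 P12 libraries. The change between these ages was called for 1 of the 21. Macrophage genes had medians of -0.0394, 0.956 and 2.65 in order of age, with the change from P3 to P12 called for 12 of 21. Principal cell genes had medians of 0.144, 0.177 and 1.05 at the 3 ages, and their change from P3 to P12 was called for 4 of 14. Proximal tubule genes did not move 1 way with age, with medians of -0.627, -0.0618 and -0.772. Of these 32 genes 11 were called lower at P0, 4 at P3 and 18 at P12. Of 16 intercalated cell genes 8 were called lower at P0, 2 at P3 and 3 at P12. The injury marker Havcr1 was higher already at P0 (2.90) and P3 (3.97), in log2 units.

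**Figure D5:**
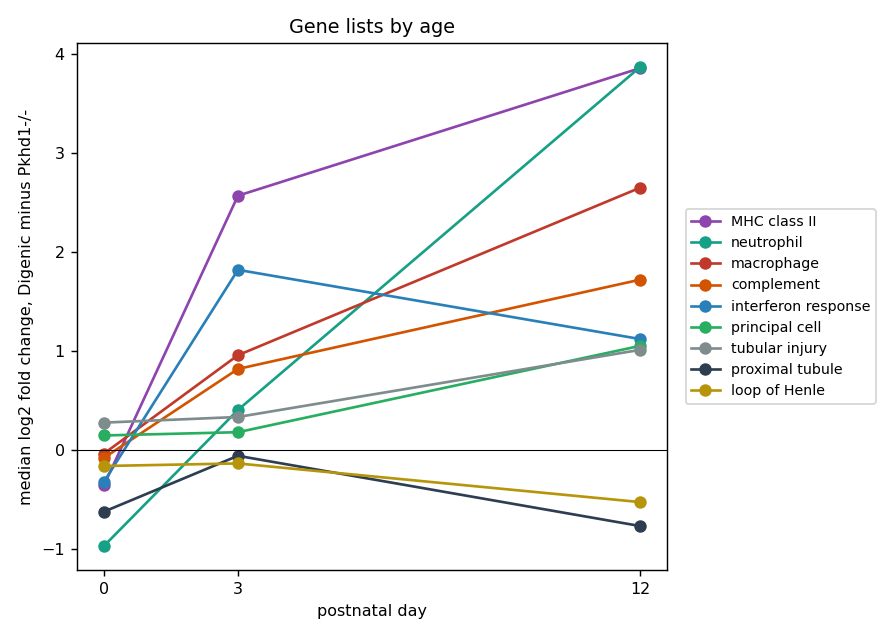
Median log2 fold change of Digenic minus Pkhd1-/- over the measured members of 9 gene lists at postnatal days 0, 3 and 12. The MHC class II and neutrophil lists end at 3.86 and 3.87 at P12, the neutrophil list from 0.402 at P3, the interferon response list is higher at P3 (1.82) than at P12 (1.12), and the proximal tubule list is below 0 at all 3 ages.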

How the data were processed

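Total RNA of whole kidneys was sequenced, per the labels, as 150 bp paired-end reads. Per the submitters' processing notes and the series' design text, reads were aligned by the authors to mm10 with TopHat2 and Bowtie within MAP-RSeq 2.1.0 and counted with featureCounts; edgeR is also named. Each deposited count is a raw number of reads of a gene in a library, per the file headers. The table covers 18049 genes, the lowest with a mean of 8.75 counts. Its 36 normalized columns were not used. The strand of the libraries is not stated, so counts of overlapping genes and near-identical copies are uncertain. Column headers were matched to samples by mouse number, and groups came from the labels.

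Counts were tested with edgeR 4.0.16 (limma 3.58.1, R 4.3.3): filterByExpr, TMM scaling and a robust quasi-likelihood fit of the 12 P12 libraries with 1 term per genotype (18002 genes). P0 and P3 differences and changes between ages came from 1 fit of all 36 libraries. Adjusted p-values are Benjamini-Hochberg values over all genes tested in a comparison, and genes were called under 0.05. CPM use TMM-scaled library sizes of the P12 libraries. Total counts of these ran from 53152909 to 80789299, so counting error is small beside the spread between mice except for the lowest genes. The fits were checked on simulated counts.

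Named genes are Pkhd1, Pkd1 and Pkd2; the 12 largest called rises and falls above a mean level of 1 (log2 CPM) that have an official symbol and groups without overlap; up to 4 members per list with the smallest adjusted p; and 6 genes per direction for the difference between backgrounds. Other named members were chosen after their values were seen. The members and the 48 lists were chosen with earlier results of these data known. Positions came from the deposited table. Promoters came from RefSeq (GRCm38.p6). Alternatives were DESeq2 1.42.0, its size factors, no filter, removal of a gene length trend, a replicate block, sex, other sets of libraries and leaving out each library.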

Additional observations from a re-analysis of the deposited data

Results flagged for a closer look

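The effect of the RC allele on the Pkhd1-/- background differed from that on the WT background at P12 by a test of the difference itself for 20 of the genes named as the largest rises, the largest falls or the largest differences. Differences are log2 fold changes, Digenic minus Pkhd1-/- less Pkd1-RC/RC minus WT. They were positive for the antigen presentation genes H2-Aa (5.55), Cd74 (5.29) and the overlapping Mir5107 (5.39), for the inflammatory genes S100a8 (5.69), S100a9 (5.40) and Fcgr4 (5.47), and for Ccl21a (4.75), Serpina3g (4.32) and C4b (4.14). They were negative for Angptl7 (-5.56), Snhg11 (-3.65), Rgs11 (-3.44, a gene that overlaps Arhgdig and whose call in Digenic against Pkhd1-/- was lost in all 6 fits without a single library), Aspg (-2.92), Atp10d (-2.78), Slc5a2 (-2.54), Klk1b5 (-2.41), Egf (-2.19), Aldh8a1 (-2.14), Dio1 (-1.87) and Klk1 (-1.65). These calls were lost in 74 of 380 refits under other settings. Of 19 refits each, the call was lost in 13 for C4b and for Dio1, 11 for Rgs11, 10 for Fcgr4 and for Snhg11, 7 for S100a9, 6 for Klk1b5 and 1 each for H2-Aa, Ccl21a, Mir5107 and Klk1. Of the 20 genes only Atp10d was called in Pkd1-RC/RC against WT, where it was higher. C4b had 1.21, 0.878 and 0.794 CPM in Pkd1-RC/RC and 0.310, 0.594 and 0.463 CPM in WT kidneys, a pair not called as different.

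The difference between Digenic and Pkhd1-/- kidneys also changed with age by such a test for genes of the same choice. From P0 to P12 it grew for the interferon genes Tgtp1 (6.00), Tgtp2 (5.83), Iigp1 (6.29) and Gbp6 (6.02), for H2-Aa (6.55), Cd74 (5.72) and Mir5107 (5.70), and for C4b (7.28), Ccl21a (6.21), Serpina3g (4.66), Fcgr4 (5.18), S100a8 (5.80) and S100a9 (5.45). It became more negative for Klk1b5 (-2.81), Klk1 (-1.89), Aspg (-3.63), Slc5a2 (-2.55), Egf (-2.44), Dio1 (-2.88) and Aldh8a1 (-2.86).

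From P3 to P12 the test of the change was passed by fewer of these genes. The difference grew for Ccl21a (3.22), Serpina3g (2.99), S100a8 (4.43) and S100a9 (4.05). It moved down for Klk1b5 (-2.43), Snhg11 (-4.49), Aspg (-3.48), Slc5a2 (-2.20), Egf (-2.60), Dio1 (-2.61) and Rgs11 (-5.11). The interferon genes Tgtp1, Tgtp2, Iigp1 and Gbp6, already high at P3, were not among them.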

How the results depend on the processing

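The count of 5073 genes called in Digenic against Pkhd1-/- stayed within 1.5 times under every alternative run, from 3522 in the fit of all 36 libraries to 5845 with DESeq2, and from 3449 to 5009 without single libraries. It was 4557 with only the 6 libraries, 4978 without Pkd1-RC/RC replicate 2 and 5260 without the gene length trend. Replicate numbers do not pair the Digenic and Pkhd1-/- mice, whose same-numbered deviations had correlations of 0.0438, -0.2 and -0.194. The fit with the replicate block gave 4887 genes. Between Pkhd1-/- and WT they were 0.122, 0.176 and 0.261, each best with its own number, a hint from the data and not the design. For the difference between backgrounds, the block ended the calls of Fcgr4 (adjusted p = 0.0606), S100a9 (0.0532), Snhg11 (0.0604), C4b (0.0698) and Dio1 (0.0821), by edgeR. Sex as a covariate ended those of C4b (adjusted p = 0.0563), Dio1 (0.0583) and Rgs11 (0.0548), by edgeR. The counts of WT rises called lower (527 to 686) and WT falls called higher (397 to 545) kept near 675 and 532 without single libraries.

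Most other counts moved more, and the cause was not tested. For the difference between backgrounds 849 genes were called in the 36-library fit, 2725 by DESeq2 and 558 to 2076 without single libraries, lowest without Pkhd1-/- replicate 2 and highest without Digenic replicate 2. With sex as a covariate 1318 were called. For the change from P3 to P12, 505 were called with the replicate block, 434 with sex, 1328 by DESeq2 and 357 to 771 without single libraries. The change from P0 to P12 stayed within 1.5 times of its 1727 genes, with 2182 called by DESeq2 and 1167 to 1684 without single libraries. For Pkd1-RC/RC against WT, 163 were called by DESeq2, 34 with sex and 26 to 44 without single libraries. Over 2610 refits of the 174 named genes called in Digenic against Pkhd1-/-, the call was lost in 174, and no direction reversed. The median changed sign under at least 1 alternative for lists close to 0 (such as intercalated cell, matrix and fibrosis and Wnt target) and for fat, erythroid and sex-linked genes.

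With 3 libraries a group no permutation of labels can fall below p = 0.1. The list counts carry no test, and cell number and RNA per cell cannot be told apart in whole kidney.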

Other observations

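Some genes outside the region of Pkd1 were called with the same direction on both backgrounds, and they are given here as values. They were picked after their values were seen. Mcoln3, a cation channel of endosomes, had 118, 114 and 92.5 CPM in Digenic and 32.4, 29.7 and 35.3 CPM in Pkhd1-/- kidneys, and 60.2, 59.6 and 51.8 CPM in Pkd1-RC/RC and 33.4, 37.7 and 35.7 CPM in WT kidneys. Ckb, the brain-type creatine kinase, had 57.4, 63.1 and 75.6 CPM in Digenic and 129, 130.0 and 141 CPM in Pkhd1-/- kidneys, and 74.5, 84.6 and 76.2 CPM in Pkd1-RC/RC and 123, 143 and 127 CPM in WT kidneys. Sema3c, a secreted guidance protein, had 196, 197 and 171 CPM in Digenic and 131, 123 and 125 CPM in Pkhd1-/- kidneys, and 142, 149.5 and 167 CPM in Pkd1-RC/RC and 101, 117 and 107 CPM in WT kidneys. In each of the 3 genes the groups with the RC allele did not overlap with their counterparts without it. The share of all tested genes without overlap was not counted for Pkd1-RC/RC and WT.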
